A study of Mus musculus with 3 samples.

Results

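Nucleosome positions were described at 10 mouse genes of DNA replication and of its E2F-RB control, chosen by name from the 21523 protein-coding genes that RefSeq places on an autosome or on X. Of these, 7 belong to the replication machinery (Mcm2, Mcm3, Mcm4, Mcm5, Mcm6, Mcm7 and Pcna) and 3 to its control (E2f2, E2f4 and Rb1). The rule that names them uses no measured value, but they were proposed with earlier results of these data known. The data are MNase-seq: micrococcal nuclease digests the DNA between nucleosomes, and the protected fragments are sequenced to place the nucleosomes. The cells were Ter119-negative mouse erythroblasts (Ter119 is a surface antigen of later red cell precursors) taken from the livers of 6 fetuses. They were grown in IMDM medium with 10% serum, erythropoietin at 2 U/ml, albumin and insulin, and were purified on day 0, day 1 or day 2 of culture, with no genotype, strain or fetal age in the labels and no further treatment. There was 1 library per day, so a difference between days has no replicate check, no test was made, and the effect of the day cannot be told apart from that of the library.

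The MCM proteins are the subunits of the ring-shaped replicative helicase. The ring is loaded at origins before S phase and unwinds DNA ahead of the fork, and Pcna is the sliding clamp that holds the polymerases on DNA behind it. E2F factors bind short GC-rich sequences with a run of T next to them in the promoters of such genes. E2f2 is mainly an activator, E2f4 acts mainly as a repressor together with pocket proteins, and Rb1 encodes the retinoblastoma pocket protein that holds activating E2Fs inactive until cells enter S phase. Fetal liver erythroblasts divide rapidly and leave the cell cycle as they mature, and mice without Rb1 or E2f4 have defective red cell maturation.

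The start-site sequences are shown first, because the position maps below turn on what lies between the nearest nucleosomes there. RefSeq promoters of 300 bases (250 before to 50 after a start, assembly GRCm38.p6, the build also named mm10) were matched by symbol for 7 of the 10 genes, and Mcm4, E2f4 and Rb1 are described without sequence. The letters TTTCCCGC, TTTGGCGC, TTTCGCGC and TTTGCCGC were searched on both strands as E2F-like words, which can overlap one another. The promoters of 5 of the 7 genes held at least 1 such word (Mcm3, Mcm5, Mcm6, Mcm7 and E2f2), and those of Mcm2 and Pcna held none of these letters. Of all 21045 promoters in the table, which belong to 17274 genes, 607 (2.88%) held one. That share is per promoter and not per gene. Mcm7 and E2f2 each have a second promoter there, and it held none. A match describes the letters only and is not evidence of binding. At Mcm5 the word printed overlaps a second on the other strand, first base at -149. Each stretch below reads 5′ to 3′ on the strand of its gene with the word in capitals, and the number after the gene is the distance of the first capital from the start site in bp.
Mcm3 +19, chr1:20820277-20820302, minus strand: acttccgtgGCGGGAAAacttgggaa
Mcm3 +38, chr1:20820263-20820283, minus strand: ttgggaagtTTTGGCGCcaag
Mcm5 -153, chr8:75109347-75109372, plus strand: gccaagaacTTTCGCGCcaaaacgtc
Mcm7 -165, chr5:138172032-138172057, minus strand: tttcgaaccGCGGGAAAcagggtgtc
Mcm7 +16, chr5:138171851-138171876, minus strand: gtgacgacgTTTCGCGCcaatttcgg
E2f2 +39, chr4:136172304-136172323, plus strand: ggcatatagTTTGGCGCtaa

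Longer stretches are shown for 4 genes as examples of different start regions in the maps: Mcm6, where positions appeared between days, E2f2, where one was listed on day 0 alone, Pcna, with a long empty stretch on every day, and Mcm2, with a position at the same place on all 3 days. Each holds the 150 bases before the start, 5′ to 3′ on the strand of the gene. Capitals mark E2F-like words, CCAAT (in 38.5% of all promoters) and GGGCGG (in 46.7%), all on either strand, so that ATTGG is CCAAT on the other strand.
Mcm6, chr1:128359706-128359855, minus strand: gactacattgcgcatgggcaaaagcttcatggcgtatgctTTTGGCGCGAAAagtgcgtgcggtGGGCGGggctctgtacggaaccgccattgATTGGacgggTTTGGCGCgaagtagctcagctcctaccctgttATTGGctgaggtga
E2f2, chr4:136172124-136172273, plus strand: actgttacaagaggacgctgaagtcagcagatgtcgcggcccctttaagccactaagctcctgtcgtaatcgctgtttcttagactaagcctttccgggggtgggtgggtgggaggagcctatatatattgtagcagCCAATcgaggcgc
Pcna, chr2:132253181-132253330, minus strand: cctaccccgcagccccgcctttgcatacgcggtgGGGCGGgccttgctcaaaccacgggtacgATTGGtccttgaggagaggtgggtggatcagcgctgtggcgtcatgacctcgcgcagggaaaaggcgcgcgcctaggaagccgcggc
Mcm2, chr6:88898781-88898930, minus strand: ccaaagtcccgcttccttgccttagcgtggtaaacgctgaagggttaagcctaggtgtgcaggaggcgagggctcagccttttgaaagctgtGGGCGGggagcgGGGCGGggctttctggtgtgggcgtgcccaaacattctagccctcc
The 300-base promoter of Mcm6 held 3 E2F-like words, 2 of them overlapping (first bases at -110 and -106) and one at -47. Its GC content was 56.7% with 21 CpG, and that of Pcna was 63% with 26 CpG. The median over all promoters was 56.7% and 13 CpG, and Mcm3 lay lowest among the first-listed promoters of the 7 genes, at 48.7% with 8 CpG.

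Each deposited list gives positions of 140 bp with the height of their summit, which is the authors' scaled, smoothed coverage. The lists held 3735952, 2999502 and 4474045 positions on days 0, 1 and 2, or 1.53, 1.23 and 1.82 per kb of autosome. The most frequent summit heights were spaced by 0.762, 0.324 and 0.626 on the 3 days. If that spacing is 1 read, the day 1 library was 2.36 times and the day 2 library 1.22 times as deep as that of day 0, and the total read numbers were not analysed here. All levels below are therefore relative: summit values were summed per bp over a window and set against the autosomes of that library, summed likewise, so that 1 is the autosome mean. The numbers of positions on the autosomes were 0.804 and 1.19 times that of day 0 on days 1 and 2. A gap in a list means that no position was called there, not that no nucleosome was present, and a change in the mix of cells cannot be told apart from a change within them.

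Over the gene with 5 kb on each side (its span), all 10 genes had a higher relative level on day 1 than on day 0, and 9 of 10 a lower one on day 2 than on day 1. The exception was Mcm4, which was higher again on day 2 with its flanks. Its gene body alone had levels of 0.920, 1.38 and 1.31 on days 0, 1 and 2, slightly lower on day 2 than on day 1. Most genes shared these directions: of those with at least 3 positions on both days, 12357 of 19750 were higher on day 1 than on day 0 and 12732 of 19993 lower on day 2 than on day 1. E2f2, E2f4 and Mcm7 had the highest day 0 levels of the 10, and Mcm4 and Mcm3 the lowest. Pcna, the shortest of the genes, turned the other way without its flanks: the level of its gene body alone was 4.02, 3.40 and 2.06 on days 0, 1 and 2.

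**Figure D1:**
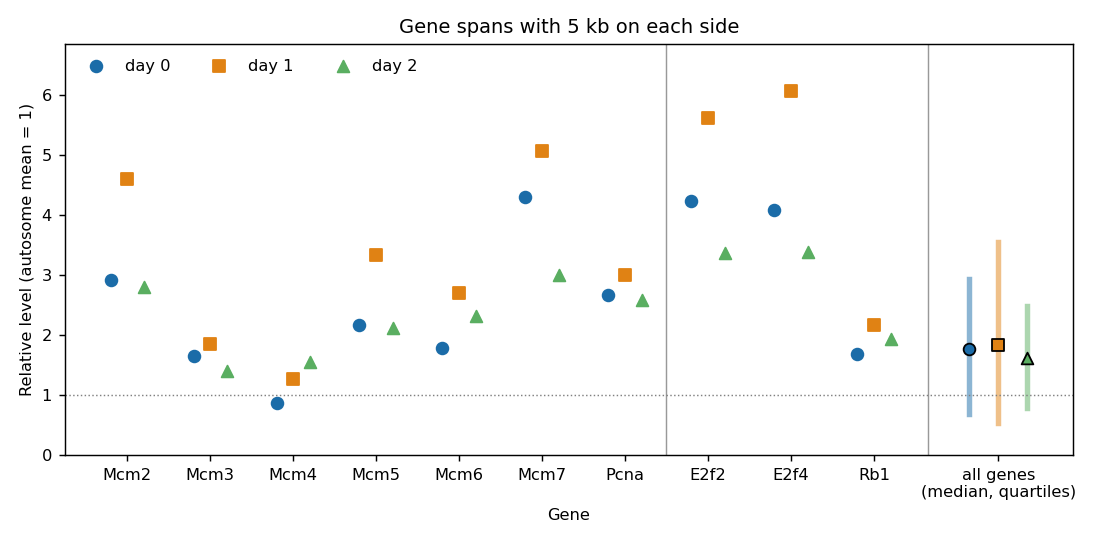
Relative level of summed summit values per bp (autosome mean = 1, linear axis) over each gene with 5 kb on each side, on days 0 (circles), 1 (squares) and 2 (triangles), 1 library per day. The right column gives the median of all 21523 genes with bars from the lower to the upper quartile. The square lies above the circle for each of the 10 genes, by the widest margin for E2f4 (4.08 to 6.07).

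Among the helicase genes, Mcm2 (chromosome 6, 88883474 to 88898780, mm10) had 102, 116 and 105 positions in its span on days 0, 1 and 2, and relative levels of 2.93, 4.60 and 2.80. The log2 change of the level was 0.65 from day 0 to day 1 and -0.71 from day 1 to day 2, and -0.06 from day 0 to day 2. Mcm5 (chromosome 8, 75109468 to 75128439) followed the same course, with 91, 116 and 105 positions and levels of 2.17, 3.33 and 2.13. At both genes day 1 stood apart and days 0 and 2 were close. Mcm6 (chromosome 1, 128331575 to 128359705) had 110, 124 and 145 positions and levels of 1.80, 2.70 and 2.33, so that day 2 stayed 0.37 above day 0 on the log2 scale.

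Mcm4 (chromosome 16, 15623897 to 15637400) had the lowest level of the 10 on days 0 and 1, with 36, 39 and 67 positions and levels of 0.873, 1.27 and 1.55. Its log2 changes were 0.54, then 0.29, and 0.83 from day 0 to day 2. It moved from percentile 29.0 of all genes on day 0 to 39.9 and 48.0. Mcm3 (chromosome 1, 20802966 to 20820312) stayed near the middle of all genes, with 74, 70 and 70 positions, levels of 1.65, 1.85 and 1.41, and percentiles 47.3, 50.3 and 43.8. Mcm7 (chromosome 5, 138164583 to 138172111) had 90, 86 and 83 positions and levels of 4.30, 5.07 and 3.01. It went from percentile 95.5 to 90.6 and 87.0, and its log2 change from day 0 to day 2, -0.52, was the lowest of the 10. Ap4m1 overlaps Mcm7 by 90 bp and Cops6 lies 599 bp away, so their positions enter its span.

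Pcna (chromosome 2, 132249286 to 132253180) had 51, 50 and 55 positions and levels of 2.68, 3.001 and 2.59, a log2 change of 0.16 and then -0.21. The genes Tmem230 and Cds2 lie 227 and 158 bp from it, so its flanks reach into both.

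Among the control genes, E2f2 (chromosome 4, 136172274 to 136196057) had 172, 176 and 163 positions and levels of 4.24, 5.62 and 3.37. E2f4 (chromosome 8, 105297663 to 105305370) had 83, 93 and 84 positions and levels of 4.08, 6.07 and 3.38. Both spans stayed above percentile 93 on all 3 days: E2f2 at 94.9, 94.8 and 93.5, and E2f4 at 93.1, 97.2 and 93.8. Their log2 changes were 0.41 and 0.57 from day 0 to day 1, and -0.74 and -0.84 from day 1 to day 2. The genes Exoc3l and Elmo3 lie 697 and 91 bp from E2f4, so its flanks reach into both. The gene body of E2f4 alone lay at percentiles 93.5, 91.0 and 91.5, with a log2 change of 0.36 from day 0 to day 1. Rb1 (chromosome 14, 73192858 to 73325951), by far the longest of the genes, had 387, 382 and 473 positions and levels of 1.69, 2.18 and 1.94, at percentiles 48.1, 55.9 and 60.0. It holds the gene Lpar6 within its bounds. The control genes therefore did not share a level: Rb1 lay near Mcm3 and Mcm6, and E2f2 and E2f4 near Mcm7.

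The median relative level of the 7 replication genes was 2.17, 3.001 and 2.33, and that of the 3 control genes 4.08, 5.62 and 3.37, against 1.77, 1.83 and 1.61 for all genes. The 2 groups overlapped on every day, since Rb1 lay below the median of the replication genes. The median log2 changes were 0.54, -0.39 and -0.05 for the replication genes (day 0 to 1, day 1 to 2 and day 0 to 2) and 0.41, -0.74 and -0.27 for the control genes. Over all genes with at least 3 positions on both days they were 0.16, -0.25 and -0.12.

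None of the 10 genes changed by 2 times or more in its span between any pair of days. Among all genes with at least 3 positions on both days, 1.99% were higher and 7.02% lower by that size from day 0 to day 1, 10.8% higher and 0.645% lower from day 1 to day 2, and 8.1% higher and 1.95% lower from day 0 to day 2. The numbers of positions were also set against each other, scaled by the library totals, with exact 95% intervals that cover counting error only and treat positions as independent, which neighbours are not. The interval of the day 1 to day 0 ratio lay above 1 for 6 of 10 genes (Mcm2, Mcm5, Mcm6, E2f2, E2f4 and Rb1) and below 1 for none, where 21.7% of all genes lay above and 11.9% below. The ratio was highest at Mcm5, at 1.58 (1.19 to 2.11). From day 1 to day 2 it lay below 1 for 7 genes (Mcm2, Mcm3, Mcm5, Mcm7, E2f2, E2f4 and Rb1) and above 1 for none, where 42.2% of all genes lay below and 12.8% above. From day 0 to day 2 it lay above 1 for Mcm4 alone, at 1.57 (1.03 to 2.42), and below 1 for E2f2 alone, at 0.798 (0.640 to 0.994), where 10.8% of all genes lay above and 19% below. In the gene body without flanks both intervals included 1, at 1.19 (0.665 to 2.15) for Mcm4 and 0.821 (0.633 to 1.07) for E2f2. For this last pair of days the members' shares were near those of all genes. The change depended on the level: on days 0, 1 and 2 the upper quartile of all span levels was 2.94, 3.55 and 2.48. The lower quartile was 0.696, 0.533 and 0.787. Shares over genes matched to the 10 in level and number of positions were not counted.

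The level of the surrounding DNA moved in part with that of the genes. In the 100 kb on each side of the span, a measure added after the span values were seen, the relative level was higher on day 1 than on day 0 for 8 of the 10 genes. The span had the larger log2 change at 8 of 10 in that comparison, all but Mcm7 and Rb1, with a median difference of 0.26. From day 1 to day 2 the span change was the higher at 3 of 10 (Mcm6, E2f2 and Rb1, median difference -0.12), and from day 0 to day 2 at 5 of 10 (-0.02). None of these counts was made over all genes, so they do not show a trait particular to the 10.

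The genes differed in how far their surroundings resembled them. Around Mcm6 the level was 1.86, 2.73 and 2.26 on the 3 days, close to the values of its span on each day. Around Rb1 it was 2.10, 3.50 and 2.68, and its log2 change of 0.73 from day 0 to day 1 was larger than the 0.37 of the gene. Around Mcm4 it was 0.657, 0.595 and 0.793, lower on day 1 than on day 0, where the gene was higher. Around Mcm3 it was 0.663, 0.530 and 0.850, less than 1 on every day while the span of Mcm3 was above 1, and the 2 moved in opposite directions in all 3 comparisons. E2f2 lay in a region of 3.50, 3.80 and 2.26, with a log2 change of -0.63 from day 0 to day 2, where that of E2f2 was -0.33.

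**Figure D2:**
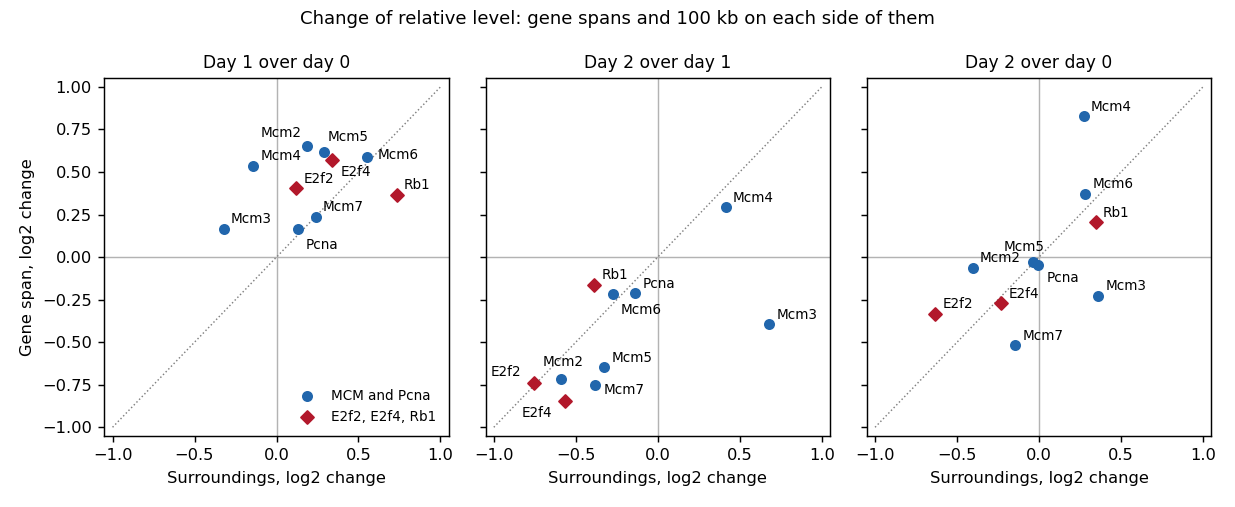
Log2 change of the relative level in the 100 kb on each side of a gene's span (horizontal axis) and in the span itself (vertical axis), for the replication genes (circles) and the control genes (diamonds), in 3 panels for day 1 over day 0, day 2 over day 1 and day 2 over day 0. The dotted line marks equal change; in the first panel 8 of 10 genes lie above it, and in the second Mcm3 lies far to its right.

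Windows within 500 bp of both gene ends gave a different picture of single genes. They hold few positions (2 to 11 per gene and day), and every interval of a scaled ratio of position numbers in them included 1. From day 0 to day 1, 3 of the 9 genes with enough positions had a level at least 2 times higher (Mcm3, Mcm6 and Rb1) and none at least 2 times lower, against 16.1% and 1.36% of all genes. From day 1 to day 2 none of 10 was higher and 4 were lower by that size (Mcm2, Pcna, E2f2 and Rb1), against 0.648% and 19.3%. From day 0 to day 2, 1 of 9 was higher (Mcm6) and 2 were lower (Pcna and E2f2), against 4.2% and 6.84%.

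The median level of the end windows of all genes shifted between libraries, by 0.41 (log2) from day 0 to day 1 and by -0.42 from day 1 to day 2. Relative to that shift, 1 gene was at least 2 times higher from day 0 to day 1 (Mcm6), where 5.39% of all genes were higher and 5.03% lower. From day 1 to day 2 none of the 10 passed 2 times in either direction, where 3.32% were higher and 5.15% lower. The shift of the median level from day 0 to day 2 was -0.02, and there the calls for Mcm6, Pcna and E2f2 were the same. The median of the single genes' log2 changes for those days was -0.12. Relative to that value the change of E2f2, -1.06, would fall short of 2 times.

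**Figure D3:**
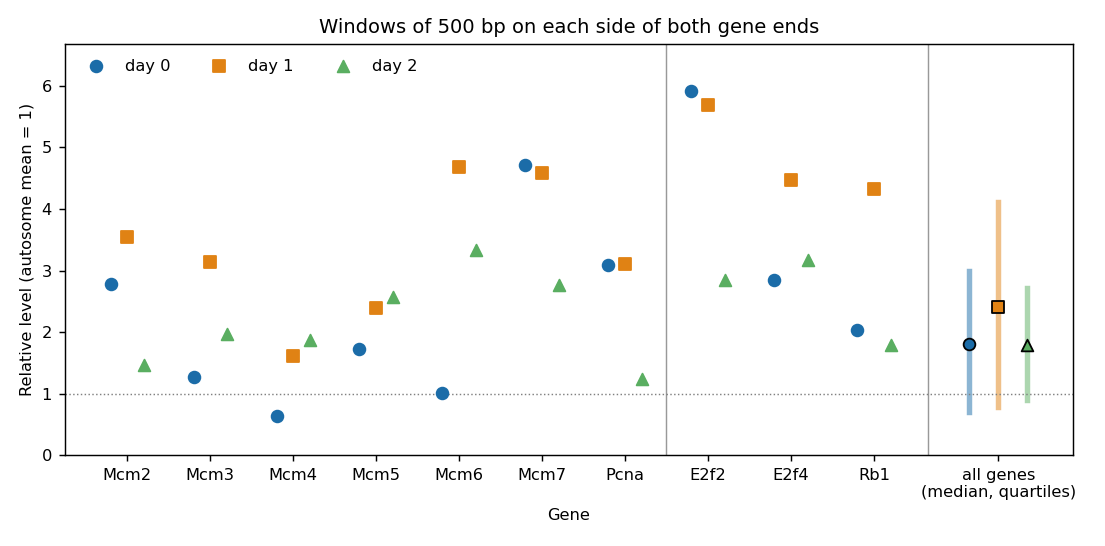
Relative level within 500 bp of both ends of each gene (autosome mean = 1, linear axis) on days 0 (circles), 1 (squares) and 2 (triangles), 1 library per day, with the median and quartiles of all 21523 genes at the right. Mcm6 goes from 1.02 to 4.69 and 3.34, and E2f2 from 5.92 and 5.69 to 2.84.

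At the ends of Mcm6 the lists held 3, 9 and 9 positions on days 0, 1 and 2, with relative levels of 1.02, 4.69 and 3.34. The log2 change was 2.20 from day 0 to day 1 and 1.71 from day 0 to day 2. Both ends took part: the start side had 1, 4 and 5 positions (levels of 0.636, 5.23 and 3.76) and the far end 2, 5 and 4 (1.40, 4.14 and 2.92). Day 0 stood apart from both later days. Mcm3 had 4, 6 and 6 positions and levels of 1.28, 3.13 and 1.97. Mcm5 had 5, 4 and 8 and levels of 1.72, 2.38 and 2.56. Mcm4 had 2, 3 and 7 and levels of 0.636, 1.61 and 1.87, and stayed out of the calls that use day 0, where it had fewer than 3 positions. One end of Mcm4, the lower in coordinate, was without a listed position on days 0 and 1 and had 3 on day 2. Prkdc, which encodes a DNA repair kinase, lies 44 bp from the other end of the gene.

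The end level of Pcna was 3.09, 3.10 and 1.23 with 7, 8 and 5 positions, so days 0 and 1 were close and the log2 change of day 2 against either was -1.33. The start side of Pcna kept 2 positions on every day, but its level went from 2.42 to 1.74 and 1.13. The far end had 5, 6 and 3 positions and levels of 3.75, 4.46 and 1.33. E2f2 was alike, with levels of 5.92, 5.69 and 2.84 and 11, 9 and 8 positions, lower on both sides on day 2. Mcm7 had levels of 4.72, 4.58 and 2.77 with 11, 8 and 8 positions. Mcm2 had 2.78, 3.55 and 1.46 with 8, 7 and 5 positions. Its start side kept 4 positions on every day, at levels of 3.32, 4.55 and 2.46. The far end had 4, 3 and 1 positions, at levels of 2.23, 2.55 and 0.461.

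E2f4 had end levels of 2.84, 4.47 and 3.16 with 6, 9 and 8 positions, and Rb1 2.04, 4.32 and 1.79 with 5, 7 and 5 positions. Day 1 was the highest at both. At the end of E2f4 that is lower in coordinate, the nearest centre on the inner side was 138, 128 and 38 bp away, with summit values of 16.9, 15.6 and 12.5. The medians at the gene ends were 1.72, 3.13 and 1.97 for the replication genes, 2.84, 4.47 and 2.84 for the control genes and 1.81, 2.41 and 1.79 for all genes.

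At the start sites the first position inside the gene lay at a similar distance at most of the 7 genes whose strand is known. The distance of its centre from the start on days 0, 1 and 2 was 184, 219 and 174 bp at Mcm2, 121, 141 and 131 bp at Mcm3, and 134, 162 and 122 bp at Mcm5. It was 77, 122 and 72 bp at Mcm7, 64, 109 and 89 bp at Pcna, and 117, 157 and 122 bp at E2f2. At these 6 genes it was farthest inside on day 1. That day had the fewest listed positions, and the share of all genes with the same order was not counted. The median over the 7 genes was 121, 141 and 122 bp, against 138, 126 and 125 bp over 17274 genes with a strand. At 6 of the 7 a centre lay within 250 bp inside the start on each day, as at 46.9% of all genes. The start used for Mcm7 (138171883) is the first of its RefSeq promoters and lies 228 bp inside the end of the gene in the table.

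**Figure D4:**
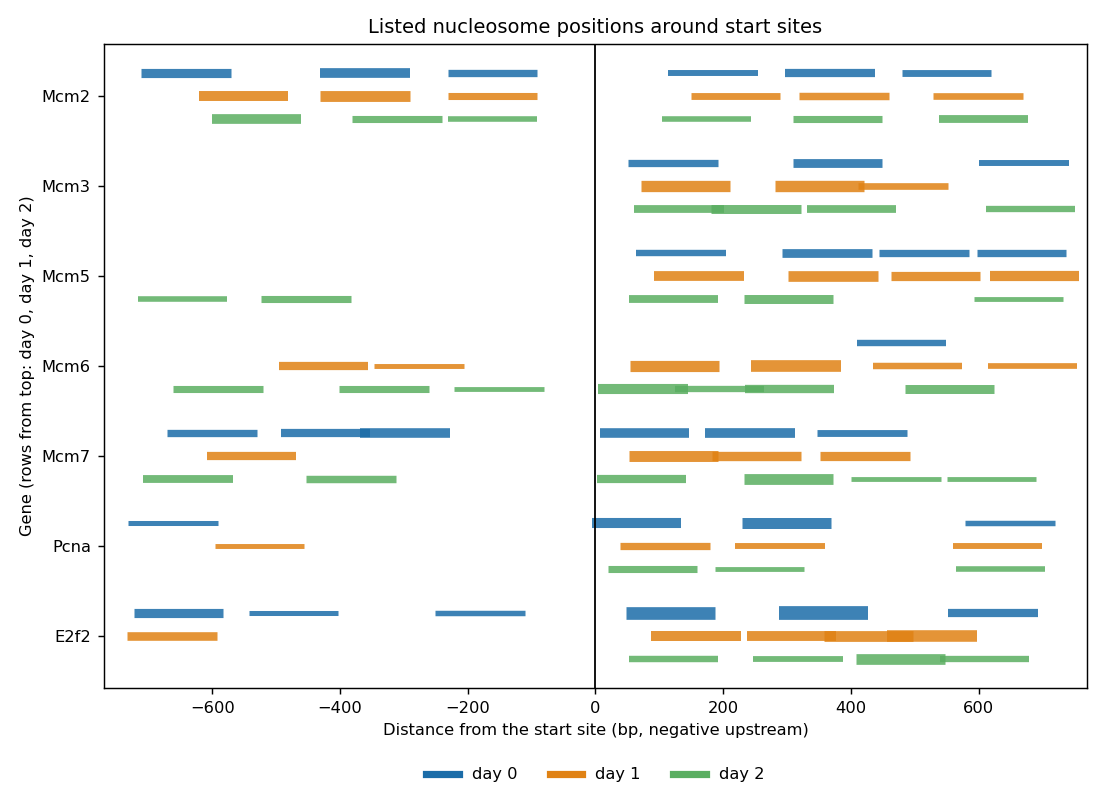
Listed positions, drawn as bars of 140 bp, by distance from the start site in bp (horizontal axis, negative upstream) at the 7 genes with a known strand, with days 0, 1 and 2 from top to bottom for each gene and thicker bars for higher summit values, for centres within 700 bp of the start. Mcm6 has 1 position in view on day 0, centred at 479 bp, and fills on both sides on days 1 and 2, while the stretch before the start of Pcna holds no centre nearer than 526 bp.

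On the upstream side the 7 genes varied more. Mcm2 had a centre at -161 bp on all 3 days, with summit values of 9.15, 8.74 and 6.26, upstream of the GGGCGG words in its printed stretch. At Mcm3 the nearest upstream centre lay at -811, -834 and -804 bp, and at Pcna at -661, -526 and -806 bp. E2f2 had centres at -181 bp on day 0 (summit 6.10) and at -663 and -723 bp on days 1 and 2. The first centre inside E2f2 had summit values of 18.0, 13.6 and 7.68. At Mcm5 the nearest upstream centre lay at -1196 and -1118 bp on days 0 and 1 and at -453 bp on day 2.

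Mcm6 changed most in this map. Its nearest centres lay at -836 and 479 bp on day 0, at -276 and 124 bp on day 1 and at -151 and 74 bp on day 2. The gap around the start was thus 1315, 400 and 225 bp. On day 1 the first centres inside, at 124 and 314 bp, had summit values of 15.5 and 16.4, above the median of 6.80 of that library. The position at -151 bp on day 2 had a summit value of 5.004, below the library's median of 6.26.

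The median gap between the nearest centres on both sides of the start was 725, 660 and 575 bp over the 7 genes and 410, 360 and 338 bp over all genes. No centre lay in the 250 bp before the start at 5, 6 and 5 of the 7 genes on days 0, 1 and 2, against 54.5%, 53.7% and 44.8% of all genes. Mcm3, Mcm5, Mcm7 and Pcna had none there on any day, as 28.0% of all genes. This start-site description was added after the other values were seen.

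Most of the E2F-like words printed above lay in these gaps. No listed position of 140 bp covered the words at Mcm3, at Mcm5, at E2f2, at -165 of Mcm7 or at -47 of Mcm6 on any day. Distances were taken from the middle of the printed stretch, which at E2f2 is cut short by the promoter's end. The nearest centre to the word at +19 of Mcm3 was 98, 118 and 108 bp away, and to that of E2f2 78, 118 and 82 bp. On day 0 the position centred at 117 bp inside E2f2 began right next to the word. At Mcm5 the word at -153 lay 284, 312 and 272 bp from the nearest centre. The overlapping words at -110 and -106 of Mcm6 were 586 and 582 bp from a centre on day 0 and 170 and 174 bp on day 1. On day 2 the position at -151 bp covered both. The word at +16 of Mcm7 was covered on days 0 and 2, with the centre 58 and 52 bp away, and not on day 1.

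E2f2, E2f4 and Mcm7, the highest of the 10 on day 0, also had the closest positions on that day. The median distance between neighbouring centres was 180, 167 and 190 bp at E2f4 and 180, 170 and 180 bp at E2f2, against 232, 220 and 230 bp over the 18146 genes that had 10 or more positions on every day. At Mcm7 it was 170, 180 and 188.5 bp. At Mcm4 it was 345, 297.5 and 266.5 bp, the widest of the 10 on each day, and the widest gap within its span was 2530, 2522 and 1625 bp. Rb1, at 232.5, 225 and 225 bp, was like the median gene.

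Summit values and fuzziness, the authors' score of how spread the reads of a position are, differed between the libraries. The median summit value of E2f4 was 10.3, 10.4 and 8.41, that of Mcm7 9.91, 9.06 and 6.88 and that of Rb1 6.86, 6.80 and 6.26, against 7.62, 6.80 and 6.26 for all genes. The median fuzziness of E2f4, the highest of the 10 on each day, was 55.7, 57.5 and 54.7, and that of Mcm4, the lowest, 50.05, 54.1 and 50.5. Over all genes it was 51.8, 54.8 and 52.1, highest on day 1. The part of these library differences in the changes at the 10 genes was not tested.

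Few positions were found at the same place on another day. Of the 1196 day 0 centres in the 10 spans, 21.7% (exact 95% interval 19.4 to 24.2) had a day 1 centre within 20 bp, and 16.0% did so after the lists were shifted against each other by 1000 bp. For day 1 centres on day 2 the share was 21.3% (19.1 to 23.7; 17.1% after the shift), and for day 0 centres on day 2 it was 23.2% (20.9 to 25.7; 17.7%). Among positions with summit values of 10 or more, the last share was 6.51%, the same as after the shift. Over all genes the same shares were 15.4%, 19.5% and 17.2%, with 12.02%, 14.8% and 13.4% after the shift. On day 0 the median distance between neighbouring centres was shorter than that of all genes at 6 of the 10.

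E2f2 and Mcm6 lay at the extremes of the 10 from day 0 to day 1. At E2f2, 66 of 172 centres were found again, 38.4% (31.1 to 46.1), with 23.5% after the shift. At Mcm6, 11 of 110 were, 10.0% (5.10 to 17.2), with 18.6% after the shift. On both later days, 20 of the 172 day 0 centres of E2f2 were found within 20 bp (11.6%) and 1 of the 110 of Mcm6 (0.909%). The share was 4.51% for the replication genes, 6.70% for the control genes and 3.63% for all genes.

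Other genes of the pathways were taken from lists of known roles, and their counts are to be read against those of all genes: 12357 of 19750 were higher on day 1 than on day 0, 12732 of 19993 lower on day 2 than on day 1, and 8124 of 20472 higher on day 2 than on day 0. Of 22 genes of origin licensing and firing, 16 had a higher span level on day 1 than on day 0, and 7 a higher one on day 2 than on day 0. From day 0 to day 2 the highest was Dbf4, the activator of the Cdc7 kinase, at a log2 change of 0.74, and the lowest Gins2, a subunit of the GINS complex, at -0.48. Of 26 fork genes, 22 were higher on day 1 than on day 0 and 22 were lower on day 2 than on day 1. The ends of their range from day 0 to day 2 were Pola1, the catalytic subunit of polymerase alpha, at 0.42, and Pold2, a subunit of polymerase delta, at -0.61. Of the 6 genes of nucleotide supply, 4 were higher on day 1 than on day 0 and 6 were lower on day 2 than on day 1. The highest from day 0 to day 2 was Rrm1, a ribonucleotide reductase subunit, at 0.31.

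Of 16 genes of the E2F, DP, RB and DREAM list, 13 were higher on day 1 than on day 0, and 15 were lower on day 2 than on day 1, the direction of most genes in both cases. E2f5, a repressor E2F like E2f4, was the only gene of the 4 lists past 2 times between any pair of days, from day 0 to day 2. It had 39, 38 and 85 positions and levels of 0.590, 0.721 and 1.18, a log2 change of 1.00. The counts leave out the 10 genes themselves, and the lists were chosen with values of these data known. Their median log2 changes from day 0 to day 1 were 0.15 (licensing), 0.32 (fork), 0.27 (nucleotide supply) and 0.25 (E2F and RB), against 0.16 for all genes.

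Nucleosome positions do not report expression, so the labelled cell type could not be checked from markers. The median span level of 9 erythroblast markers was 2.52, 3.76 and 2.57, and that of 5 megakaryocyte markers 3.15, 4.59 and 2.65. It was 2.52, 2.46 and 1.84 for 8 macrophage, 1.16, 0.915 and 1.12 for 7 hepatocyte and 2.28, 1.76 and 1.83 for 5 lymphoid markers. Gene by gene, 9 of 9 erythroblast and 5 of 5 megakaryocyte markers were higher on day 1 than on day 0. So were 5 of 8 macrophage, 2 of 7 hepatocyte and 3 of 5 lymphoid markers, against 12357 of 19750 of all genes. The part of other cells in the values of the 10 genes was not tested.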

How the data were processed

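MNase-seq libraries of day 0, day 1 and day 2 (1 each) were analysed from the authors' position lists on mm10. The series' design text names micrococcal nuclease and the labels genomic DNA, though 1 line of the labels' protocols speaks of RNA libraries. Reads were processed with Bowtie2 and bedtools, per the submitters' processing notes; the versions, position caller and scaling were not given in the sources used here. Each deposited list gives start, end and summit position in bp, the summit signal (smoothed coverage scaled by the authors), a fuzziness score, and p-values deposited for both, which were not used. Lists were called separately in each library, per the file headers and labels. Summit values were summed per bp in 3 windows: gene with 5 kb flanks, 500 bp around both ends, and 100 kb beyond the flanks; each sum was divided by the autosome sum of the library, taken from 3 Mb of each chromosome on. A gene was called higher or lower at 2 times with at least 3 positions on both days.

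Gene bounds came from RefSeq (GRCm38.p6), with 108 genes that start before 3 Mb left out. All 10 genes are named, and pathway genes are those at the ends of the range of a list or past 2 times, of which 1 is not reported here. The members and lists were chosen with earlier results of these data known. Intervals are exact binomial (Clopper-Pearson for shares, conditional for ratios). With 1 library per day, no test was made; intervals cover counting error only, and positions are not independent molecules. The scripts were tested on simulated data. Python 3.11.15, numpy 2.4.6, pandas 2.3.3, scipy 1.17.1 and matplotlib 3.10.9 were used. The alternatives changed the flank, end window, summit minimum, position minimum, weighting, scaling and matching distance.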

Additional observations from a re-analysis of the deposited data

How the results depend on the processing

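Of the span medians and position shares, these moved. With summit values of 10 or more, the log2 change of the control genes from day 0 to day 1 was 0.85 (0.41 with all positions), and the changes from day 0 to day 2 turned above 0, to 0.18 for the replication genes (-0.05) and 0.021 for the control genes (-0.27). From day 1 to day 2 the change of the replication genes was -0.56 with each position counted once, -0.72 in the gene body and -0.21 scaled to the median of all genes (-0.39), and that of the control genes was -0.56 with that scaling (-0.74). The same scaling turned the replication genes from day 0 to day 2 to 0.08. At the gene ends, 2 genes (Mcm6 and Mcm4) were at least 2 times higher from day 0 to day 2 with a minimum of 1 position, in place of 1. Scaled to the median of all genes, an alternative chosen after seeing the data, 1 gene was higher from day 0 to day 1 in place of 3, and 0 were lower from day 1 to day 2 in place of 4. Shares of centres found again (day 0 on 1, day 1 on 2, day 0 on 2) were 12.5%, 12.2% and 13.3% within 10 bp, 38.3%, 38.9% and 40.4% within 40 bp and 12.3%, 7.51% and 6.51% for summits of 10 or more, where the shares after the shift were 7.28%, 4.78% and 6.51%, so that day 0 centres on day 2 had no excess over the shift; the distance sets the first of these by construction. The cause of the other changes was not tested. The end-window medians also depended on the scaling to the median of all genes: from day 0 to day 1 they were 0.06 for the replication genes (0.47) and 0.25 for the control genes (0.65), and from day 1 to day 2 -0.25 (-0.67) and -0.58 (-1.002). From day 0 to day 2 the end-window median of the replication genes was 0.34 with each position counted once and 0.26 within 1000 bp of the ends (0.57). These medians include Mcm4. With at least 3 positions on both days, which leaves Mcm4 out, the median was -0.097 over 6 genes, 3 above and 3 below 0. Its sign thus depended on that 1 gene. No paired analysis was possible because there was 1 library per day. The number of positions in an end window, 2 to 11, limits what can be said of a single gene end.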
